A study of Mus musculus with 6 samples.

Results

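The 10 marker genes of adipose progenitors and fibroblasts described here are Dpp4, Pi16, Pdgfra, Ly6a, Cd34, Thy1, Efemp1, Fbn1, Dcn and Lum. They were followed in inguinal white adipose tissue, a subcutaneous fat depot of the mouse. They were taken by name, 10 of the 21900 distinct gene symbols in the table. Dpp4 and Pi16 mark interstitial progenitors, and the other 8 are more general genes of progenitors and fibroblasts. RNA came from C57BL/6 mice of 2 months, all kept at 4 °C for 7 days after housing at 22 °C on chow, a treatment that recruits heat-producing adipocytes in this depot. The 3 controls were Foxp4fl/fl, with both copies of the forkhead factor gene Foxp4 floxed and no Cre named in their labels. In the 3 knockouts, Foxp4AdipoQdelta/delta, the floxed gene was deleted by a Cre recombinase under the promoter of Adipoq (adiponectin), which is active in mature adipocytes. The progenitors and fibroblasts described here are not the cells in which that promoter is mainly active, and Cre and the loss of Foxp4 cannot be told apart.

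Fat pads hold a stroma of mesenchymal cells that express the receptor Pdgfra, from which new adipocytes arise. In mouse subcutaneous fat, cells with Dpp4 and Pi16 lie in the connective sheath around the lobules and can give rise to committed preadipocytes, which carry Icam1 and low levels of adipocyte genes. The same cells, with fibroblasts, secrete the matrix of the depot: decorin and lumican on collagen fibrils, and fibrillin microfibrils with the fibulins that bind to elastic fibres.

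The upstream bases of Dpp4, Pi16 and Efemp1 are shown because these genes had lower values in every knockout than in any control. Of the 10 genes, 6 were matched by symbol in RefSeq (build GRCm38.p6): Dpp4, Pi16, Pdgfra, Cd34, Efemp1 and Fbn1. Each run holds the 250 bases before the RefSeq start, 5′ to 3′ on the gene's own strand, and capitals mark a match to 1 of the 4 short motifs given after the sequences.
Dpp4 (chr2:62412232-62412481, minus strand): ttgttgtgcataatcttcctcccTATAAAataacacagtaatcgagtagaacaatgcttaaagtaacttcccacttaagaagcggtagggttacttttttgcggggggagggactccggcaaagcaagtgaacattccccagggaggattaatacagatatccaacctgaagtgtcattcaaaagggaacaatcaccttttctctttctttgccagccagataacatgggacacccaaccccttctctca
Pi16 (chr17:29318632-29318881, plus strand): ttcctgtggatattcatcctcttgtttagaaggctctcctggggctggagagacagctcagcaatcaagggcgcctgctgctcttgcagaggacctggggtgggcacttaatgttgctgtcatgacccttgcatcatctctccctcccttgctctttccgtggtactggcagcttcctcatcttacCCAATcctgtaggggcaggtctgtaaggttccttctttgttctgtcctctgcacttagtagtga
Efemp1 (chr11:28852955-28853204, plus strand): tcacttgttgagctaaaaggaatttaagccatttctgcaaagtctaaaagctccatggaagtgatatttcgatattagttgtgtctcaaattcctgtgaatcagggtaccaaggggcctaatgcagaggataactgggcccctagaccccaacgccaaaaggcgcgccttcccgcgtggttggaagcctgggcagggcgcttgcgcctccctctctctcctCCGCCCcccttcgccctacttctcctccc

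All 4 motifs were searched on both strands, beside their share of the 32851 RefSeq windows of the same length. The forkhead core TGTTTNC was in 17.8% of those windows. The TATA motif TATAAA was in 12.4% of them. The CCAAT motif was in 33.8%, and the GC box GGGCGG in 32.7%. None of the 6 windows held more than 1 match, so no matches overlapped. Dpp4 held the TATA motif, 227 to 222 bases before its start. Pi16 held the CCAAT motif, 64 to 60 bases before, and Efemp1 held the GC box on the opposite strand, 29 to 24 bases before. The forkhead core was found in 1 of the 6 windows, that of Cd34, as TGTTTCC, 197 to 191 bases before the start. Fbn1 held a GC box and Pdgfra held none of the 4 motifs. The Fbn1 window (chr2:125506439-125506688, minus strand) lies inside the gene as GENCODE places it, which starts at 125507993. These are matches of letters in a window, not binding sites.

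The libraries held between 13180381 and 15998097 reads recovered on annotated genes, and each of the 10 markers rested on between 243 and 18435 reads per library. Foxp4 was at 4.01 to 5.76 FPKM (read fragments corrected for gene length and library size) in controls and 1.64 to 1.92 FPKM in knockouts, so it was lower in all 3. Adipoq, which marks adipocytes, was at 1150 to 1286 FPKM in controls and 823 to 935 FPKM in knockouts, so adipocyte RNA was present in all 6 libraries; the depot itself was not checked. Genes were compared with limma on log2(FPKM + 1), in which 1 of 10787 genes tested (0.00927%) passed a Benjamini-Hochberg adjusted p of 0.05, and none of the 10 markers did. Below an unadjusted p of 0.05 in limma, 17.1% of all genes tested had lower values in knockouts and 6.98% had higher ones. Values below 0 on the log2 scale stand for lower values in knockouts.

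All 10 markers reached the minimum for testing, a group mean of 1 FPKM in controls or in knockouts. Below the same unadjusted p, 5 were lower in knockouts (Dpp4, Pi16, Pdgfra, Efemp1 and Dcn) and 0 were higher. In 4 of them, Dpp4, Pi16, Efemp1 and Dcn, all 3 knockouts lay below all 3 controls, which was so for 22.7% of all genes tested. Of the 10 log2 fold changes, 8 were below 0, beside 66% of those of all genes tested, and those of Lum and Thy1 were above 0. The median log2 fold change of the 10 was -0.42, against -0.08 over all genes tested. In whole tissue, fewer cells of a type and less RNA per cell cannot be told apart.

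**Figure D1:**
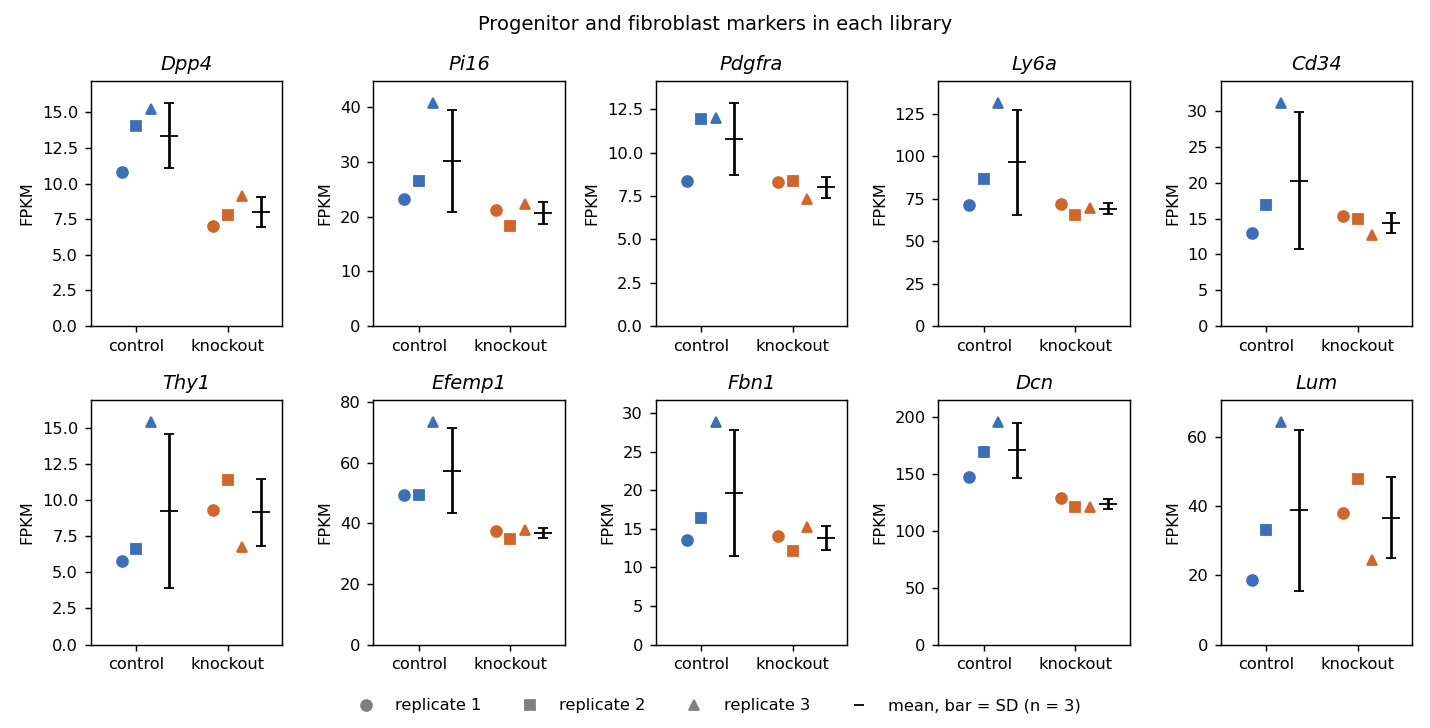
FPKM of each of the 10 markers in the 3 control and 3 knockout libraries (symbols, replicates 1 to 3), with the mean and SD of each group beside them and every axis starting at 0. Dpp4, Pi16, Efemp1 and Dcn have no overlap between the groups, and control replicate 3 is the highest library in all 10 panels.

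Control replicate 3 had the highest value of the 6 libraries for all 10 markers, which was so for 34.5% of all genes tested. It stood at 1.18 (Pdgfra) to 2.5 (Thy1) times the mean of the other 2 controls. The spread between controls was also wider than that between knockouts for all 10 (by the coefficient of variation), which was so for 63.9% of all genes tested. Without control replicate 3, the markers lower at an unadjusted p under 0.05 were 3 (Dpp4, Efemp1 and Dcn), beside 14.1% of all genes tested, and 1 was higher (Thy1), beside 8.33%. The median of the 10 was then -0.23, and that of all genes -0.05. The fold changes of the 10 markers and the counts of the progenitor, fibroblast and matrix lists below are therefore given with and without that library.

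**Figure D2:**
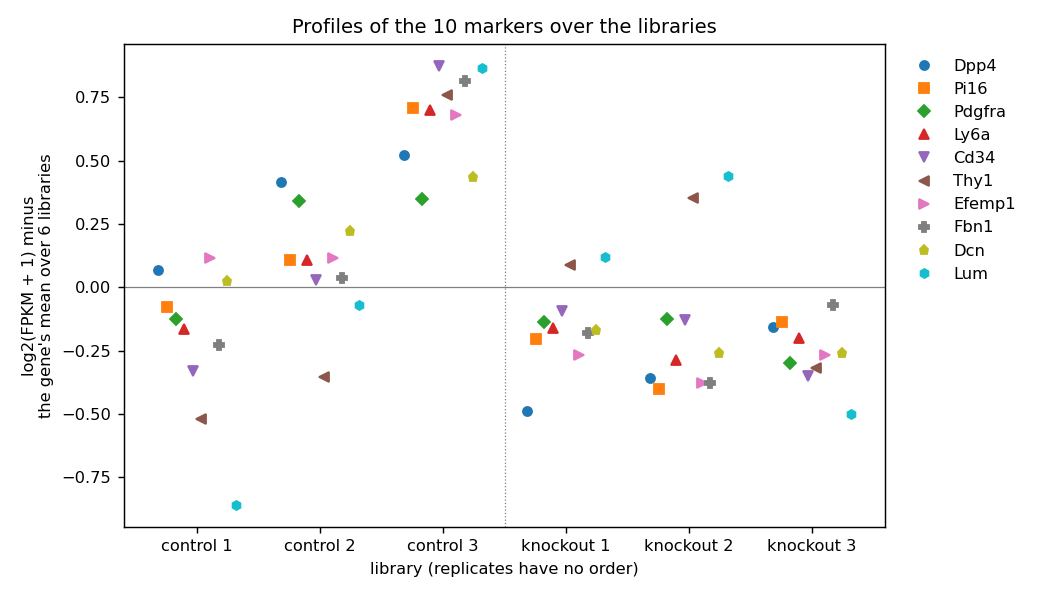
Each marker's log2(FPKM + 1) in each library, less its own mean over the 6 libraries (y axis, log2 units; 1 symbol per gene). All 10 points of control replicate 3 lie above 0, while Lum and Thy1 are the lowest points in control replicate 1 and the highest in knockout replicates 1 and 2.

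Dpp4 encodes a cell-surface dipeptidyl peptidase and is the defining marker of the interstitial progenitors. It lies on chromosome 2, 62330073 to 62412231, minus strand (mm10). Dpp4 had 10.8, 14.0 and 15.2 FPKM in the control libraries and 7.05, 7.82 and 9.13 FPKM in the knockout libraries. The highest knockout, replicate 3, thus stayed below the lowest control, replicate 1. The group mean was 13.4 ± 2.27 FPKM in controls, 1.67 times that in knockouts, 8.0 ± 1.05 FPKM (SD, n = 3). Dpp4 had a log2 fold change of -0.67 (SE 0.14, 95% interval -1.0 to -0.34), the largest of the 10 in size, with an adjusted p of 0.082 in limma. Without control replicate 3 it was -0.57 (adjusted p = 0.11 in limma).

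Pi16 encodes peptidase inhibitor 16, a secreted or membrane-anchored protein found in the same sheath cells and in fibroblasts of many tissues. In GENCODE it lies on chromosome 17, 29317680 to 29330593, plus strand. The RefSeq start used for the sequence shown is 1202 bases downstream of that GENCODE start, so those bases lie inside the GENCODE gene. Pi16 had 23.2, 26.5 and 40.7 FPKM in the control libraries and 21.2, 18.3 and 22.2 FPKM in the knockout libraries. The groups did not overlap, but control replicate 1 and knockout replicate 3 were close, and control replicate 3 stood well above the rest. The group mean was 30.1 ± 9.28 FPKM in controls, 1.47 times that in knockouts, 20.6 ± 2.02 FPKM (SD, n = 3). Pi16 had a log2 fold change of -0.49 (SE 0.20, adjusted p = 0.19 in limma) and -0.26 without control replicate 3 (adjusted p = 0.23).

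Dpp4 and Pi16 were compared with the other 8 markers within each library, as the difference of their mean log2(FPKM + 1). This difference was -0.54, -0.59 and -0.87 in controls and -1.05, -1.08 and -0.66 in knockouts. Knockout replicate 3 lay among the controls, so the groups overlapped. The means were -0.67 ± 0.18 and -0.93 ± 0.23 (SD, n = 3), a gap of -0.26 log2 units that no test accompanies, because the genes were chosen with results known. The gap ran from -0.40 to -0.19 when 1 library was left out. By profile over the libraries, Pi16 lay nearer to the general markers Ly6a and Fbn1 than to Dpp4. The root-mean-square difference between centred log2 profiles over the 6 libraries was 0.07 between Pi16 and Ly6a, the closest pair of the 45. It was 0.09 between Pi16 and Fbn1, and 0.20 between Pi16 and Dpp4. This is a description of 6 libraries, without a test.

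Pdgfra encodes the PDGF receptor alpha, the receptor that marks adipose mesenchymal cells as a whole. Its values were 8.36, 11.9 and 12.0 FPKM in controls and 8.30, 8.38 and 7.30 FPKM in knockouts. Control replicate 1 lay between knockout replicates 1 and 2, so the groups overlapped there. The means were 10.8 ± 2.08 and 7.99 ± 0.60 FPKM (SD, n = 3), with a log2 fold change of -0.37 (SE 0.14, adjusted p = 0.17 in limma). Without control replicate 3 it was -0.29 (adjusted p = 0.29 in limma). Against Pdgfra in the same library, Dpp4 had ratios of FPKM of 1.29, 1.18 and 1.27 in controls and 0.85, 0.93 and 1.25 in knockouts. The ratio was thus below every control in knockout replicates 1 and 2, and among the controls in knockout replicate 3.

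Ly6a encodes the GPI-anchored surface protein Sca-1, used to sort mesenchymal progenitors and carried by endothelial cells as well. It had 71.4, 86.5 and 131 FPKM in the control libraries and 71.7, 65.6 and 69.7 FPKM in the knockout libraries. Control replicate 1 and knockout replicate 1 were nearly equal. Ly6a had a log2 fold change of -0.43 (SE 0.20, adjusted p = 0.25 in limma), and -0.19 without control replicate 3. Ly6a belongs to a family of closely related genes on chromosome 15, so its level is uncertain if reads were shared with relatives, which was not measured. It was the gene nearest to the mean profile of the 10, at a root-mean-square difference of 0.06.

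Cd34, a sialomucin of progenitors and of vascular endothelium, had 12.9, 16.9 and 31.1 FPKM in the control libraries and 15.4, 15.0 and 12.7 FPKM in the knockout libraries. All 3 knockouts lay below control replicate 2 and around control replicate 1. The log2 fold change of -0.38 (SE 0.28, 95% interval -1.04 to 0.28, adjusted p = 0.43 in limma) was -0.04 without control replicate 3.

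Thy1 encodes CD90, a small GPI-anchored surface protein of fibroblasts that T cells and neurons also carry. It had 5.76, 6.58 and 15.4 FPKM in the control libraries and 9.30, 11.4 and 6.77 FPKM in the knockout libraries. Every knockout was above control replicates 1 and 2 and below control replicate 3. The means of 9.25 ± 5.35 and 9.15 ± 2.31 FPKM (SD, n = 3) were nearly equal, and the log2 fold change was 0.08 (SE 0.34, 95% interval -0.72 to 0.88). Without control replicate 3 it was 0.48 (adjusted p = 0.21 in limma). Thy1 and Dpp4 thus lay on opposite sides in that fit. The ratio of Dpp4 to Thy1 was 1.88, 2.13 and 0.99 in controls and 0.76, 0.69 and 1.35 in knockouts.

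**Figure D3:**
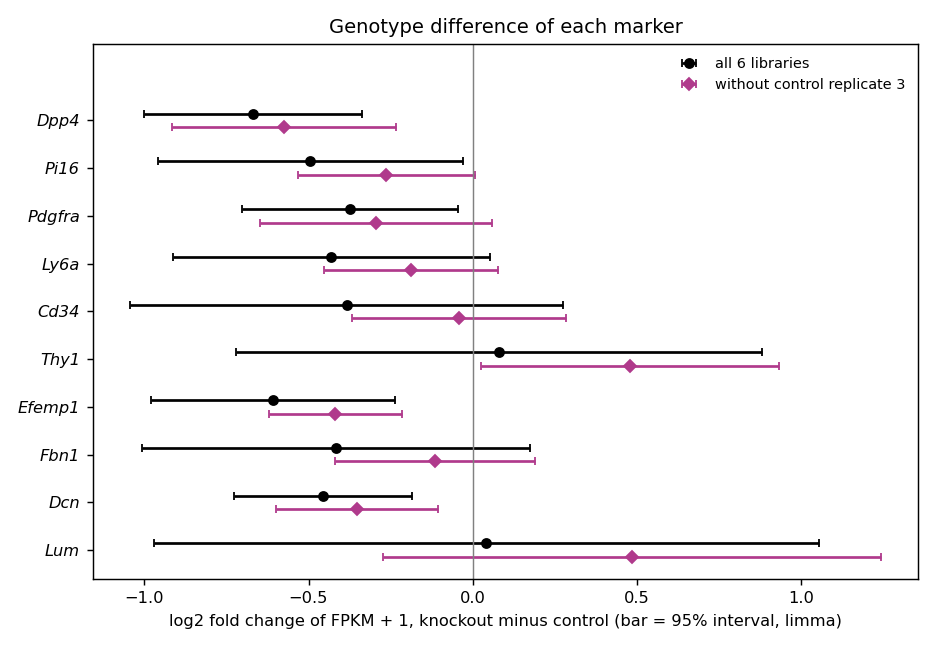
Log2 fold change of FPKM + 1, knockout minus control, for each marker with its 95% interval from limma, with all 6 libraries (black circles) and without control replicate 3 (magenta diamonds). In both fits the intervals of Dpp4, Efemp1 and Dcn lie below 0, while that of Thy1 lies above 0 only in the fit without that library.

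Efemp1 encodes fibulin-3, a secreted glycoprotein of elastic fibres and basement membranes (chromosome 11, 28853204 to 28926743, plus strand). It had 49.4, 49.3 and 73.6 FPKM in the control libraries and 37.6, 34.8 and 37.7 FPKM in the knockout libraries. The knockouts were tightly grouped, and all lay below the lowest control. The group mean was 57.4 ± 14.0 FPKM in controls, 1.56 times that in knockouts, 36.7 ± 1.62 FPKM (SD, n = 3). Efemp1 had a log2 fold change of -0.61 (SE 0.16, 95% interval -0.98 to -0.24, adjusted p = 0.10 in limma). Without control replicate 3 it was -0.42 (adjusted p = 0.090 in limma).

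Fbn1 encodes fibrillin-1, the main protein of the microfibrils on which elastic fibres form. It had 13.5, 16.5 and 28.9 FPKM in the control libraries and 14.0, 12.1 and 15.2 FPKM in the knockout libraries, with knockout replicates 1 and 3 between control replicates 1 and 2. Fbn1 had a log2 fold change of -0.42 (SE 0.25, adjusted p = 0.34 in limma), and -0.11 without control replicate 3.

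Decorin (Dcn) and lumican (Lum) are small leucine-rich proteoglycans, relatives that bind collagen fibrils, and their genes lie near each other on chromosome 10. Dcn (97479609 to 97518143, plus strand) had the highest FPKM of the 10 in every library. It had 147, 169 and 196 FPKM in the control libraries and 129, 121 and 121 FPKM in the knockout libraries, with no overlap. The group mean was 171 ± 24.3 FPKM in controls, 1.38 times that in knockouts, 124 ± 4.6 FPKM (SD, n = 3). Dcn had a log2 fold change of -0.46 (SE 0.12, adjusted p = 0.098 in limma), and -0.35 without control replicate 3 (adjusted p = 0.14).

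Lum (97565128 to 97572703, plus strand) had the highest coefficient of variation of the 10 in both groups, 60.1% in controls and 31.9% in knockouts. It had 18.8, 33.3 and 64.5 FPKM in the control libraries and 38.1, 47.8 and 24.4 FPKM in the knockout libraries. All 3 knockouts lay within the range of the controls. Lum had a log2 fold change of 0.04 (SE 0.43, 95% interval -0.97 to 1.05), an interval that holds changes of either sign. Without control replicate 3 it was 0.48 (adjusted p = 0.40 in limma). The ratio of Lum to Dcn within a library was 0.13, 0.20 and 0.33 in controls and 0.30, 0.40 and 0.20 in knockouts. Knockout replicate 3 thus stood beside control replicate 2 in this ratio.

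**Figure D4:**
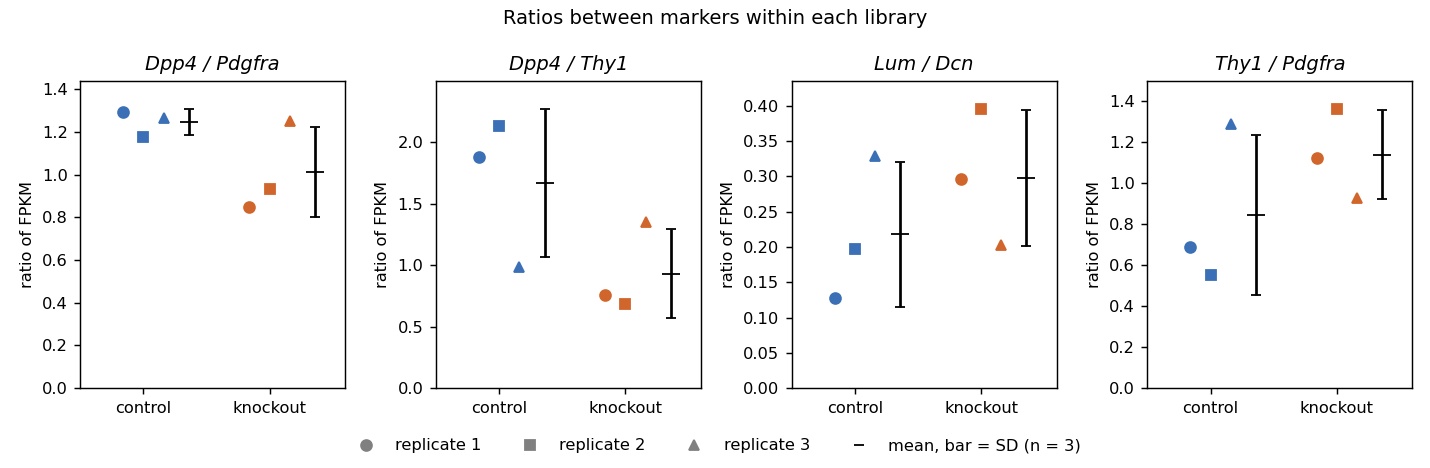
Ratios of FPKM between pairs of markers within each library (symbols, replicates 1 to 3), with the mean and SD of each group; every axis starts at 0. The groups overlap in all 4 panels, with control replicate 3 among the knockouts for Dpp4 to Thy1, Lum to Dcn and Thy1 to Pdgfra, and knockout replicate 3 among the controls for Dpp4 to Pdgfra.

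By mean FPKM the order in controls was Dcn, Ly6a, Efemp1, Lum, Pi16, Cd34, Fbn1, Dpp4, Pdgfra and Thy1. Cd34 (20.3 FPKM) and Fbn1 (19.6 FPKM) were within each other's spread. Dpp4 was above Pdgfra (10.8 FPKM) in every control library, and the values of Thy1 overlapped those of both. Lum was below Pi16 in control replicate 1 (18.8 and 23.2 FPKM) and above it in the other controls. In knockouts Lum (36.8 FPKM) and Efemp1 (36.7 FPKM) were level, and Thy1 (9.15 FPKM), Dpp4 (8.0 FPKM) and Pdgfra (7.99 FPKM) could not be ordered beyond their spread. The 5 genes outside the markers whose profile over the 6 libraries was most like the mean of the 10 were Tpst1, Lpar1, Marcks, Isg15 and P3h3. Their root-mean-square differences from it were 0.05 to 0.07 log2 units.

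Of 16 other genes listed for interstitial progenitors, 13 were tested, and 5 of these were lower at an unadjusted p under 0.05, with 0 higher. For this list and those below, the matching shares of all genes tested were 17.1% lower and 6.98% higher. Without control replicate 3 these shares were 14.1% and 8.33%. All 13 had a log2 fold change below 0, beside 66% of all genes tested. The count was 10 of 13 without control replicate 3, beside 59.8% of all genes. Uchl1, a deubiquitinase also abundant in nerves, was at 1.43 to 2.09 FPKM in controls and 0.85 to 1.04 FPKM in knockouts (log2 fold change -0.55, adjusted p = 0.088 in limma). Anxa3, an annexin, had means of 28.0 and 19.3 FPKM with overlap, and Ly6c1, also an endothelial gene, had 73.1 and 51.7 FPKM without it. Pcolce2, an enhancer of procollagen processing, had 15.2 and 10.5 FPKM. The median of the 13 was -0.38, and -0.19 without control replicate 3, when 2 (Ly6c1 and Uchl1) were lower.

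Genes of committed preadipocytes had a median log2 fold change near that of all genes. Of 13 tested, 2 had lower and 0 higher values at an unadjusted p under 0.05, with a median of -0.05. The median was -0.04 without control replicate 3, with 2 lower (Ggt5 and Apod) and 1 higher (Col15a1). Ggt5, a gamma-glutamyltransferase, was at 5.11 to 5.59 FPKM in controls and 2.92 to 3.78 FPKM in knockouts (log2 fold change -0.53, adjusted p = 0.077 in limma). Icam1, the adhesion molecule that marks these cells, had 2.73 and 2.25 FPKM (adjusted p = 0.25). Col15a1, a basement membrane collagen, had 34.2 ± 18.7 and 47.7 ± 13.3 FPKM (SD, n = 3) with overlap. Its log2 fold change was 0.55 (adjusted p = 0.38 in limma), and 0.96 without control replicate 3 (adjusted p = 0.12). Several genes of this list, Fabp4, Lpl, Pparg and Cd36 among them, are far more abundant in adipocytes.

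Of 8 genes listed for progenitors with Cd142 (F3), a population described as restraining adipogenesis, 3 had lower and 0 higher values at an unadjusted p under 0.05, with a median of -0.34. The median was -0.15 without control replicate 3, when 2 (Bgn and Cygb) were lower. Biglycan (Bgn) was at 24.6 to 30.0 FPKM in controls and 16.6 to 19.5 FPKM in knockouts (log2 fold change -0.53, adjusted p = 0.081 in limma). Cytoglobin (Cygb), a globin of fibroblasts, had means of 24.4 and 17.1 FPKM without overlap, and Fmo2, a monooxygenase, had 6.74 and 4.71 FPKM with it.

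Of 30 general fibroblast genes besides the 8 markers, all tested, 10 were lower at an unadjusted p under 0.05 and 0 were higher. The log2 fold change was below 0 in 27 of the 30, beside 66% of all genes tested. Without control replicate 3 it was below 0 in 19, beside 59.8% of all genes tested. Igfbp4, which binds insulin-like growth factors, was at 108 to 120 FPKM in controls and 59.4 to 74.9 FPKM in knockouts. This gave a log2 fold change of -0.70 (limma adjusted p = 0.070, SE 0.11), and -0.73 without control replicate 3. Gelsolin (Gsn), an actin-severing protein also secreted, had means of 2637 and 1884 FPKM without overlap. The transporter Abca8a had 16.7 and 11.6 FPKM, and fibulin-1 (Fbln1) had 6.88 and 4.99 FPKM, each without overlap. In Gsn, Igfbp4, Abca8a and Fbln1, control replicate 3 stood at 0.92, 0.94, 1.07 and 1.16 times the mean of the other controls. That ratio was 1.18 to 2.5 in the 10 markers, and which cells gave the RNA was not tested. The median of the 30 was -0.31, and -0.19 without control replicate 3, when 6 were lower and 3 (the collagen VI genes Col6a1, Col6a2 and Col6a3) were higher. Over these 4 lists together, leaving out the 10 markers, 64 genes were tested. Of these, 20 were lower at an unadjusted p under 0.05 and 0 were higher, beside 17.1% and 6.98% of all genes tested. Without control replicate 3, 12 were lower and 4 were higher, beside 14.1% and 8.33% of all genes tested.

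Among the small leucine-rich proteoglycans, 9 of 16 were tested, 4 of them lower at an unadjusted p under 0.05 (Dcn, Podn, Bgn and Ogn) and 0 higher. In this family, 3 were lower (Dcn, Podn and Bgn) and 1 was higher (Aspn, asporin) without control replicate 3. Podocan (Podn) was at 17.3 to 28.1 FPKM in controls and 8.48 to 13.4 FPKM in knockouts, a log2 fold change of -1.12 (SE 0.22, adjusted p = 0.081 in limma). It was -1.05 without control replicate 3. Osteoglycin (Ogn) had means of 59.4 and 39.1 FPKM, with control replicate 1 at the level of the knockouts. Lum, with its overlapping groups, was not among the 4.

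Among fibrillins, fibulins and other genes of elastic fibres, 23 were tested, with a median log2 fold change of -0.27. At an unadjusted p under 0.05, 5 had lower values and 0 had higher ones, beside 17.1% and 6.98% of all genes tested. The median was -0.13 without control replicate 3, when 3 (Efemp1, Fbln1 and Mfap1a) were lower, beside 14.1% of all genes tested. With all libraries the 5 were Efemp1, Fbln1, Fbln2, elastin (Eln, 9.92 and 6.96 FPKM) and Mfap1a (3.76 and 2.88 FPKM), which despite its name encodes a nuclear splicing protein. Of 7 PDGF ligands and receptors, Pdgfra and the ligand Pdgfc (3.32 and 2.41 FPKM) were lower at that threshold, and Pdgfc alone without control replicate 3. Among 8 tested peptidases of the Dpp4 family, Dpp4 alone was lower at that threshold, with and without control replicate 3, and its closest relative, the fibroblast activation protein gene Fap, had 4.27 ± 1.05 and 3.24 ± 0.43 FPKM (SD, n = 3, adjusted p = 0.29 in limma). In the Ly6 list, 6 of 14 were tested and 1, Ly6c1, was lower, as it was without control replicate 3, when Thy1 was higher.

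Markers of other cells that share some of these genes were read beside them. Endothelial markers (12 of 12 in the table), which bear on Cd34 and Ly6a, summed to 136 to 255 FPKM in controls and 144 to 183 FPKM in knockouts. Control replicate 3 had the 255 FPKM and the other controls 137 and 136 FPKM. Cdh5, a junction protein of endothelium, was at 49.0 FPKM in control replicate 3 and at 21.2 to 34.2 FPKM elsewhere. Mural and smooth muscle markers (11 of 11) summed to 209 FPKM in control replicate 3, 151 and 115 FPKM in the other controls, and 124 to 135 FPKM in knockouts. The 10 markers themselves summed to 362, 431 and 608 FPKM in controls and to 352, 342 and 326 FPKM in knockouts. Vascular markers and the 10 markers were thus highest in the same library, as were the macrophage, Schwann cell and T cell sums given below. The part of vascular cells in the results was not tested.

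T cell and lymphoid markers (11 of 12), which bear on Thy1, summed to 4.58 to 6.78 FPKM in controls and 3.49 to 4.84 FPKM in knockouts. Thy1 alone exceeded this sum in all 6 libraries, but the part of T cells in its level was not tested. Mesothelial markers (8 of 8) summed to 1.17 to 2.52 FPKM, with Upk3b, Wt1 and Upk1b listed at 0 in all 6 libraries. Epithelial markers (7 of 7) summed to at most 1.30 FPKM, with Krt14 listed at 0. Schwann cell markers (7 of 7), of nerve sheaths, summed to 56.4 to 87.5 FPKM in controls and 50.7 to 70.7 FPKM in knockouts. Skeletal muscle markers (8 of 8) ranged from 17.6 to 74.4 FPKM in controls and from 22.1 to 350 FPKM in knockouts, highest in knockout replicate 3.

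Macrophage markers were lower in knockouts at an unadjusted p under 0.05 in 12 of 12 tested, and in 11 without control replicate 3, summing to 607 to 813 FPKM in controls and 387 to 499 FPKM in knockouts. Mature adipocyte markers (10 of 10) summed to 12488 to 13767 FPKM in controls and 9797 to 10775 FPKM in knockouts, with 3 lower at that threshold. Cfd, the most abundant of them, had means of 6162 and 4000 FPKM without overlap. Fabp4 had 2539 and 2483 FPKM, and Pnpla2 had 1191 and 1058 FPKM, both with overlap. The median log2 fold change of this adipocyte list was -0.14, against -0.08 over all genes tested. In control replicate 3 the adipocyte sum was the lowest of the controls. FPKM is a share of each library, and the part of these other cells in the values of the 10 markers was not tested.

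**Figure D5:**
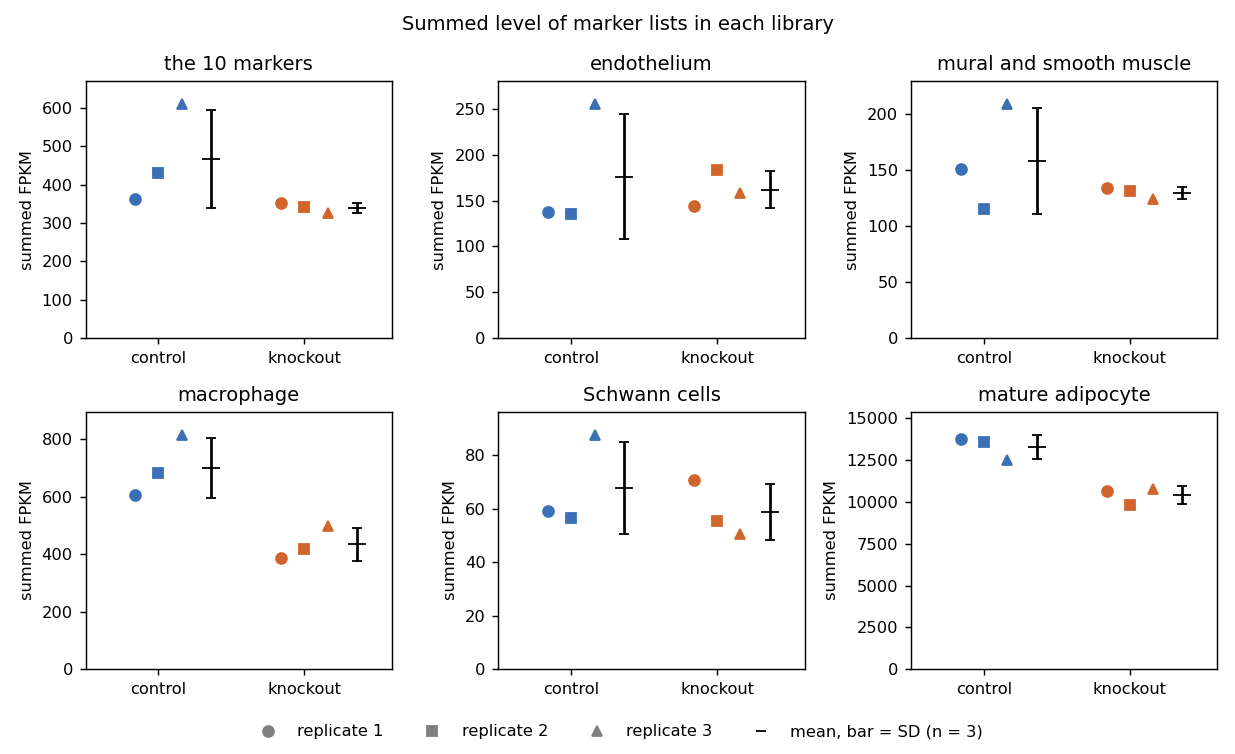
Summed FPKM of the 10 markers and of 5 lists of markers of other cells in each library (symbols, replicates 1 to 3), with the mean and SD of each group; every axis starts at 0. Control replicate 3 is highest for the 10 markers (608 FPKM), endothelium (255 FPKM) and mural cells (209 FPKM). It is also highest for macrophages (813 FPKM) and Schwann cells (87.5 FPKM), and lowest of the controls for adipocytes.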

How the data were processed

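Polyadenylated RNA of 6 samples, 3 per group, was made into stranded mRNA libraries and sequenced on an Illumina instrument, per the labels' protocols. The authors' deposited values are FPKM per gene. The submitters' processing notes name cutadapt, HISAT2, HTSeq and mm10; their versions, the annotation and the strand setting are not stated in these notes. The unit was read from the values: FPKM times merged exon length (GENCODE M21, same build) came within 0.05 of a whole read in 97.97 to 98.05% of values of at most 50 reads. Of 21936 rows, 36 repeated a symbol, and of each such symbol the row of higher mean was used.

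Genes whose group mean reached 1 FPKM in controls or in knockouts were fitted with limma 3.58.1 (R 4.3.3; two-sided, mean-variance trend) on log2(FPKM + 1), with genotype as the only term. That scale understates changes of low genes. The fit was tested on simulated data, with noise drawn separately for each gene. Differences shared by many genes of a library were not part of that test. An exact test of 3 against 3 cannot go below p = 0.10. The labels do not say whether samples were single mice or pools, so p-values measure the spread between these samples; they name no sex or batch.

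The 10 markers and all lists were chosen with earlier results of these data known. Named genes were the markers; up to 4 genes per pathway list with the smallest p; up to 3 per cell type with the highest mean; and the 5 nearest profiles. Some named genes are given by list sum only. Alternatives were other pseudocounts, filters and scaling, limma-voom on recovered reads, the replicate number as a block, and leaving out each library.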

Additional observations from a re-analysis of the deposited data

How the results depend on the processing

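Dpp4, Efemp1 and Dcn kept a log2 fold change below 0 and an unadjusted p under 0.05 in all 12 alternatives, between -0.80 and -0.57, -0.70 and -0.42, and -0.56 and -0.35. Their adjusted p ranged from 0.065 to 0.29, 0.083 to 0.32 and 0.081 to 0.31 in limma. Pi16 had p under 0.05 in 7 of 12 and Pdgfra in 6 of 12. Ly6a, Cd34 and Fbn1 stayed below 0 in all 12. The markers lower at that threshold numbered 3 to 8 when 1 library was left out: 3 without control replicate 3 or any 1 knockout, and 8 without control replicate 1. They were 3 under median-of-ratios scaling, where the median of the 10 was -0.33 and that of all genes -0.0011. When 1 library was left out, the median of the 10 ran from -0.63 to -0.23, and that of all genes from -0.11 to -0.05. Lum ranged from -0.38 to 0.48 and Thy1 from -0.16 to 0.48 when 1 library was left out, both highest without control replicate 3. Lum turned to -0.38 without control replicate 1, -0.0088 without knockout replicate 1 and -0.17 without knockout replicate 2. Thy1 turned to -0.16 without control replicate 1, -0.079 without control replicate 2 and -0.077 without knockout replicate 2. Of the 64 other list genes tested, 9 (without knockout replicate 2) to 23 (without control replicate 2) were lower when 1 library was left out. The count of all genes past an adjusted p of 0.05 was 0 without a filter, 0 with voom, 0 under the replicate block, 2 at a filter of 5 FPKM, and 0 to 5 when 1 library was left out. With the replicate block, 5 markers and 25 other list genes were lower. The share of all genes lower at an unadjusted p under 0.05 was counted only with all libraries in the main fit (17.1%) and without control replicate 3 (14.1%). The counts of markers and list genes in the other fits thus have no matching share beside them. Same-numbered libraries did not deviate together (r of 0.065, 0.027 and -0.25 across genes). With 3 libraries per group, this check cannot exclude a pairing by number. The cause of these changes was not tested.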
